A study of Mus musculus with 6 samples.

Results

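The clustered protocadherins were described in RNA sequencing counts from the cerebral cortex of 6 fetal male mice. Members were the rows whose gene symbol is that of a protocadherin of the alpha, beta or gamma cluster. There were 56 members among 45583 rows, with 13 in the alpha cluster, 22 in the beta cluster and 21 in the gamma cluster. GENCODE M21 (build GRCm38) places all 56 on the plus strand of chromosome 18, alpha from 36930184 to 37187661, beta from 37264938 to 37524479 and gamma from 37661793 to 37841873. Pcdhgc4, which the same annotation places in the gamma cluster, was not analysed here.

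All fetuses were of the Cyp19-EGFP strain, which carries a bacterial artificial chromosome with the aromatase gene and an inserted green fluorescent protein gene, and their genotype label reads WT, SRY +. Dams received bisphenol A (BPA, a plastic monomer that mimics estrogen) at 50 µg/kg, or peanut oil as vehicle, from GD10.5 to GD14.5 (gestational day). Cortex was taken at GD15.5. Each group had 3 fetuses with 1 library each, and the labels name the fetus but not the dam, so fetuses of a group may share a litter.

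Clustered protocadherins are cell-surface cadherins of neurons. In the alpha and gamma clusters each variable exon has its own promoter, encodes the extracellular part, the transmembrane segment and the start of the cytoplasmic part, and is spliced to constant exons that all members of that cluster share. Beta genes are single-exon genes without constant exons. In most neurons a few alternate isoforms are switched on from these arrays, apparently at random, with the DNA-binding factor CTCF and cohesin at the chosen promoters, while the C-type genes at the end of the alpha and gamma arrays are used more uniformly. The proteins bind like to like between neurons, and they are known for self-avoidance of dendrites, for dendrite growth and for neuron survival.

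Total counts per library ranged from 3444601 to 7180835, and the members together held from 2400 to 4730 counts of a library. Of the 56 members, 53 had a count in every library and 47 had at least 10 counts in each. The 8 genes listed for cortical projection neurons, all of which were tested, summed to between 8071 and 8432 CPM (counts scaled to library size) in vehicle. In BPA they summed to between 7943 and 8370 CPM. The list also holds the general neuron genes Tubb3, Dcx and Stmn2, at 2333, 2317 and 719 CPM on average in vehicle. Its sum is therefore not that of projection neurons alone. Markers of the ventral telencephalon were also present, at 951 to 1094 CPM in vehicle and 834 to 907 CPM in BPA over 8 genes.

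The arrangement of these genes sets what a count can show. The share of a member's exonic bases that belonged to no other gene model on its own strand was from 8.56% (Pcdha4) to 70.8% (Pcdha11) in the alpha cluster, from 33.2% (Pcdhga4) to 68.5% (Pcdhgb5) in the gamma cluster, and from 90.3% (Pcdhb21) to 100% in the beta cluster. Reads from the shared constant exons had not been given to every member, since Pcdhga10, whose model holds the gamma constant exons, was at 0 counts in all 6 libraries. The 2613 exonic bases that only Pcdhga10 uses on its strand were all covered by exons of the antisense gene Gm26672, which had from 6 to 12 counts per library. Across the genome, 25 protein-coding genes had at least 500 bases free on their own strand but none free on both strands, and 21 of these 25 (84%) were at 0 counts in all libraries, against 22.9% of 20242 protein-coding genes with at least 500 bases free on both strands. The 0 of Pcdhga10 is therefore not read as absence of its RNA. Levels of different members are compared below only as CPM per kilobase of exonic bases free of any other model on both strands, without Pcdhga10, without Pcdha4, which had 404 such bases, and without Pcdha11, a symbol that GENCODE M21 gives to 2 gene models.

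Over the 53 members that could be ranked in this way, the gamma cluster had the highest median level and the beta cluster the lowest. The median was 5.18 CPM per kb over 20 gamma genes, 2.37 over 11 alpha genes and 1.55 over 22 beta genes.

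Pcdhgc3, a C-type gene whose protein is known for promoting dendrite branching in the cortex, had the highest level of all, at 62.7 CPM per kb ± 8.09 (SD over 6 libraries). Its lowest library, at 55.3, lay above the highest library of the next gene, Pcdhga8, at 23.8. Antisense exons of BC037039 cover 1559 of its bases, and with the bases free on its own strand as length Pcdhgc3 was at 33.8 CPM per kb and still the highest, against 17.5 for Pcdhga8. Pcdhga8, an A-type gamma gene, was at 21.0 CPM per kb ± 2.80 and Pcdhga11, also A type, at 16.0 ± 2.87, and the libraries of these neighbors overlapped. Pcdhga11 has only 1256 bases free on both strands, and with the bases free on its own strand as length it was at 7.61 CPM per kb and the fifth in place of the third. Pcdhgb6, a B-type gene, followed at 13.4 CPM per kb ± 1.74, overlapping with Pcdhga11. The B-type genes had a median of 4.15 CPM per kb over 7 genes and the A-type genes 5.60 over 11 genes. Pcdhgc5, the only other C-type gamma gene with a row, was the lowest gamma gene that could be ranked, at 1.19 CPM per kb (from 0.703 to 1.53 over the libraries).

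In the alpha cluster the C-type gene Pcdhac2 was highest, at 7.37 CPM per kb ± 0.796, and did not overlap with Pcdha12, the next, at 4.27 ± 0.654. Pcdha12 and Pcdha3, at 3.77 ± 0.622, overlapped. The other C-type gene, Pcdhac1, was at 0.645 CPM per kb ± 0.274, from 2 to 18 counts per library. Pcdha1 and Pcdha8 were the lowest, at 0.239 and 0.235 CPM per kb, with from 1 to 5 and from 1 to 4 counts per library.

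In the beta cluster Pcdhb7 and Pcdhb17 led with 5.34 CPM per kb ± 0.310 and 5.10 ± 0.786, which overlapped, followed by Pcdhb20 at 3.84 ± 0.969. Pcdhb1, the first gene of the array, had 0 counts in 5 libraries and 1 count in BPA replicate 3, which was under the limit of 3 counts that a count of 0 allows. Of Pcdhb12, 1107 of 3034 exonic bases were free on both strands, and it had 3, 8 and 5 counts in the vehicle libraries and 0, 2 and 1 in the BPA libraries. These groups did not overlap, at 0.441 CPM or more in vehicle and 0.325 CPM or less in BPA, but the counts were too low for the filter and the gene was not tested. The middle of the array, from Pcdhb8 to Pcdhb15, held 8 neighboring genes at 1.64 CPM per kb or less. This limit is the value of Pcdhb8, taken after the values were seen, and lies above the beta median of 1.55. Outside this stretch Pcdhb1, Pcdhb2, Pcdhb4, Pcdhb18 and Pcdhb21 also lay under it.

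**Figure D1:**
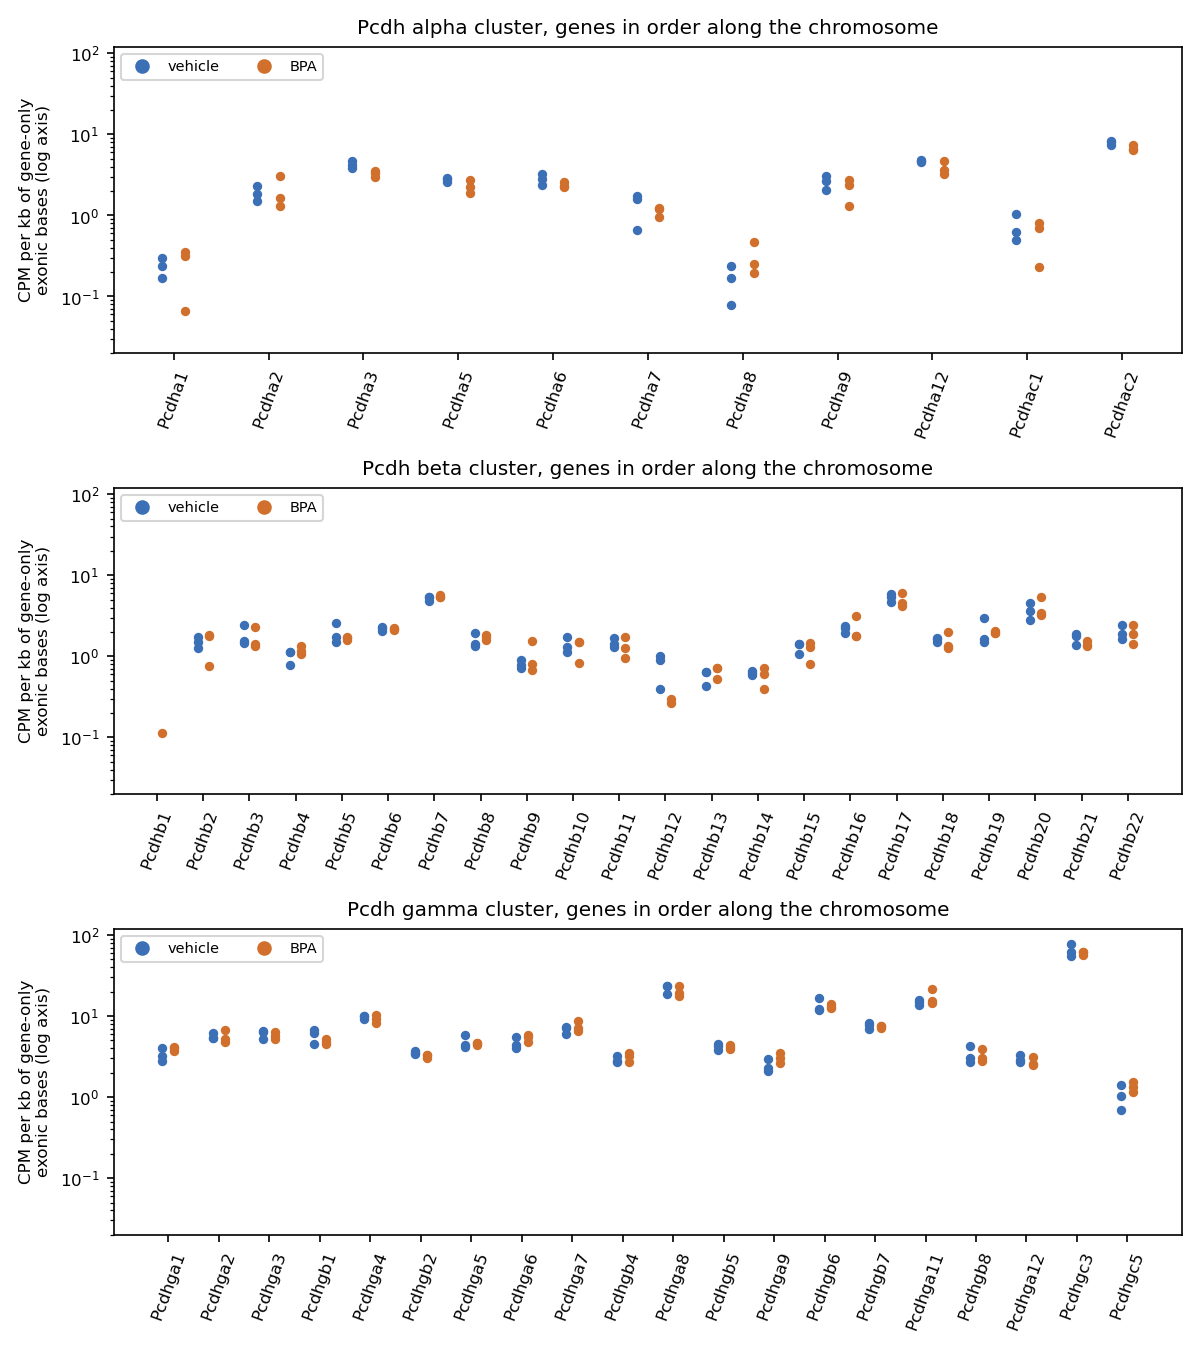
Level of each ranked member in each library (log axis, CPM per kb of exonic bases free of other gene models), by cluster and in order along the chromosome; blue points are the 3 vehicle libraries and orange points the 3 BPA libraries, and libraries at 0 (Pcdhb1 in 5, Pcdhb12 in 1) are not drawn. Pcdhgc3 stands at 62.7 CPM per kb on average, and of the tested genes drawn only Pcdha3 and Pcdhgb2 have groups that do not overlap.

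Whether maternal BPA changed these genes was then tested on the whole table, by edgeR's quasi-likelihood test. No clustered protocadherin passed an adjusted p of 0.1, where 0 of all 13741 genes tested (0%) did. The filter on low counts left 51 members, 11 alpha, 20 beta and 20 gamma genes, and removed Pcdha1, Pcdha8, Pcdhb1, Pcdhb12 and Pcdhga10. None of the 51 had an unadjusted p under 0.05, where 2.20% of all genes tested did. The smallest was 0.0726 (Pcdha3), and the adjusted p was 1 for each member. DESeq2 and limma-voom also gave 0 members at an unadjusted p under 0.05 and 0 past the adjusted threshold. The vehicle and BPA libraries did not overlap for 2 of the members tested, Pcdha3 and Pcdhgb2, both lower in BPA, which is 3.92% of those tested against 6.75% of all genes tested in either direction and 3.56% lower in BPA. The 95% confidence interval of the log2 fold change lay within a 2-fold change in either direction for 49 of the 51. The exceptions were Pcdha7 and Pcdhac1. Changes of that size were thus outside the intervals for the others. Intervals differed in width by gene, as from -0.37 to 0.16 for Pcdhgc3 and from -0.94 to 0.25 for Pcdha9, so some smaller changes were inside them.

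Of the 3 clusters, alpha had the median farthest from 0, without any member passing the test. The log2 fold change was below 0 for 10 of 11 alpha genes, 14 of 20 beta genes and 13 of 20 gamma genes, where it was below 0 for 49.5% of all genes tested. Its median was -0.22 over the alpha genes, -0.078 over the beta genes and -0.025 over the gamma genes, beside 0.0016 over all genes tested. With 1 library left out, 8 to 11 alpha, 10 to 15 beta and 8 to 12 gamma genes were below 0, and 25 of the 51 members changed sign in at least 1 of these 6 fits. The gamma count was 8 without vehicle replicate 2, and the beta median ran from -0.0048 without vehicle replicate 1 to -0.19 without BPA replicate 3. These are descriptions of lists whose genes share a locus, and the members are not independent of each other.

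The alpha cluster summed to 89.6, 76.2 and 86.6 CPM in the vehicle libraries and to 70.5, 67.8 and 76.1 CPM in the BPA libraries. The lowest vehicle library and the highest BPA library thus nearly met without overlapping, at 76.16 and 76.15 CPM. The scaling factors of these libraries were 0.99197 (vehicle replicate 2) and 0.99799 (BPA replicate 3). On library size alone the order of these sums is reversed and the groups overlap. The mean was 84.1 CPM ± 7.04 (SD, n = 3) for vehicle against 71.5 CPM ± 4.27 for BPA, or 85.0% of vehicle, a log2 ratio of -0.23 beside a within-group SD of 0.11 on the log2 scale. Counting error alone was wide at this depth, with a 95% exact Poisson interval from 67.2 to 86.0 CPM for BPA replicate 3, which rested on 261 counts, and from 69.9 to 82.9 CPM for vehicle replicate 2. In bulk tissue, fewer cells of a type and less RNA per cell cannot be told apart. The sum of the ventral telencephalon markers given above was also lower in every BPA library than in any vehicle library. All 8 genes were below 0 in log2 fold change, as were 49.5% of all genes tested. By edgeR's test 5 of the 8 were at an unadjusted p under 0.05, against 2.20% of all genes. That list was chosen with earlier results of these data known, so its counts are no independent result. The part of these markers in the alpha values was not tested.

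Among the single alpha genes, Pcdha3 was at 9.56, 10.4 and 11.6 CPM in vehicle and at 8.64, 7.48 and 8.17 CPM in BPA. All BPA libraries lay below all vehicle libraries. Its log2 fold change was -0.37 (SE 0.194), and its adjusted p in the edgeR fit was 1. Pcdha11 was at 8.24, 6.05 and 6.51 CPM in vehicle and at 5.34, 4.55 and 6.13 CPM in BPA, a log2 fold change of -0.40 (SE 0.239) that was -0.25 without vehicle replicate 1. BPA replicate 3 lay inside the vehicle range. Pcdha12, the last of the alternate alpha genes, was at 9.41, 8.87 and 9.07 CPM in vehicle and at 7.07, 6.34 and 9.04 CPM in BPA, and its groups overlapped through BPA replicate 3 alone. Pcdhac2, a C-type gene known from serotonergic axons, where it is needed for their even spacing, was at 24.6, 22.2 and 25.4 CPM in vehicle and at 19.5, 22.3 and 19.8 CPM in BPA. Its log2 fold change was -0.22 (SE 0.139), and BPA replicate 2 reached into the vehicle range. Pcdhac1 was at 2.65, 1.27 and 1.58 CPM in vehicle and at 2.04, 1.79 and 0.584 CPM in BPA, overlapping widely.

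The sums of the alternate and of the C-type alpha genes had similar ratios. The C-type sum is mostly that of Pcdhac2, at 22.3 CPM on average over all libraries against 1.65 CPM for Pcdhac1. The alternate genes Pcdha1 to Pcdha12 are 11 rows, since no row has the symbol Pcdha10. These alternate genes summed to 58.2 CPM on average (from 52.7 to 62.4) for vehicle against 49.5 CPM (from 43.7 to 55.7) for BPA, a log2 ratio of -0.23. The C-type genes summed to 25.9 CPM (from 23.5 to 27.2) against 22.0 CPM (from 20.4 to 24.1), a log2 ratio of -0.24. Each of these sums overlapped between the groups. The remaining alpha genes that were tested had log2 fold changes from -0.34 (Pcdha9) to 0.037 (Pcdha4), on 9 to 52 counts per library.

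**Figure D2:**
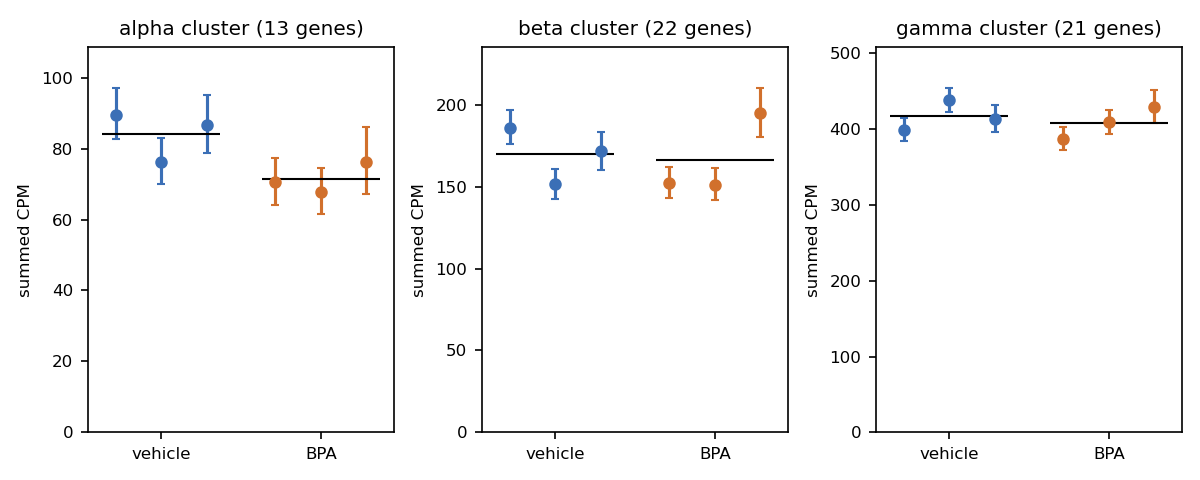
Summed CPM of all members of each cluster in each library (axes from 0), vehicle in blue and BPA in orange, with 95% exact Poisson intervals as bars and group means as lines. The alpha sums are 84.1 CPM on average in vehicle and 71.5 CPM in BPA. They barely fail to overlap with the scaling used, and overlap on library size alone, while the beta and gamma sums overlap.

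The beta cluster did not separate the groups. It summed to 186, 151 and 172 CPM in vehicle and to 152, 151 and 195 CPM in BPA, with means of 170 CPM ± 17.4 and 166 CPM ± 24.8 (SD, n = 3). The highest sum was that of BPA replicate 3, the shallowest library. Pcdhb17 was at 27.5, 21.7 and 24.8 CPM in vehicle and at 21.0, 19.3 and 28.3 CPM in BPA, and Pcdhb7 was at 19.0, 16.6 and 18.9 CPM in vehicle and at 19.0, 18.9 and 19.8 CPM in BPA. The groups overlapped for both genes. Pcdhb19 was at 21.2 CPM in vehicle replicate 1 and between 10.8 and 14.6 CPM in the other 5 libraries. The beta genes with the smallest unadjusted p were Pcdhb21 and Pcdhb4. Pcdhb21 was at 7.94, 5.91 and 7.49 CPM in vehicle and between 5.65 and 6.50 CPM in BPA, a log2 fold change of -0.24 (SE 0.226) that ran from -0.36 without vehicle replicate 2 to -0.14 without vehicle replicate 1. Pcdhb4 was between 2.94 and 4.22 CPM in vehicle and at 3.93, 5.04 and 4.38 CPM in BPA, a log2 fold change of 0.25 (SE 0.273) that was 0.088 without vehicle replicate 1 and 0.13 without BPA replicate 2.

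The gamma cluster held most of the members' counts, 62.2% ± 3.38 for vehicle and 63.3% ± 1.93 for BPA (SD, n = 3). Its sums were 399, 438 and 414 CPM in vehicle and 388, 410 and 429 CPM in BPA, with a log2 ratio of the means of -0.028. Pcdhgc3 was at 101, 142 and 112 CPM in vehicle and at 104, 113 and 114 CPM in BPA. Vehicle replicate 2 stood above the other 5 libraries, which lay between 101 and 114 CPM, and the log2 fold change of Pcdhgc3 was -0.11 (SE 0.123, 95% confidence interval from -0.37 to 0.16). Without Pcdhgc3, the gamma sum was 298.7 CPM in each group, ± 2.96 in vehicle and ± 16.1 in BPA (SD, n = 3).

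The sums of the A-type and of the B-type gamma genes overlapped between the groups. A-type genes summed to between 172 and 188 CPM in vehicle and to between 168 and 205 CPM in BPA, and B-type genes to between 104 and 121 CPM in vehicle and to between 104 and 110 CPM in BPA. Pcdhga8 was at 49.0, 39.3 and 49.7 CPM in vehicle and at 36.6, 39.8 and 48.4 CPM in BPA, and Pcdhgb6 was at 31.2, 42.7 and 30.8 CPM and at 33.6, 35.9 and 32.1 CPM, both overlapping. The gamma genes with the smallest unadjusted p were both higher on average in BPA. Pcdhga9 was at 10.1, 7.32 and 7.89 CPM in vehicle and at 10.7, 9.26 and 12.2 CPM in BPA, a log2 fold change of 0.32 (SE 0.207). Pcdhgc5 was at 6.47, 3.24 and 4.73 CPM in vehicle and at 7.07, 5.36 and 6.13 CPM in BPA, and its log2 fold change was 0.37 (SE 0.277), or 0.66 without vehicle replicate 1, 0.13 without vehicle replicate 2 and 0.24 without BPA replicate 1. Pcdhgb2, whose groups did not overlap, was at 9.71, 10.1 and 9.47 CPM in vehicle and at 9.11, 9.10 and 8.46 CPM in BPA, a log2 fold change of -0.13 (SE 0.187).

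**Figure D3:**
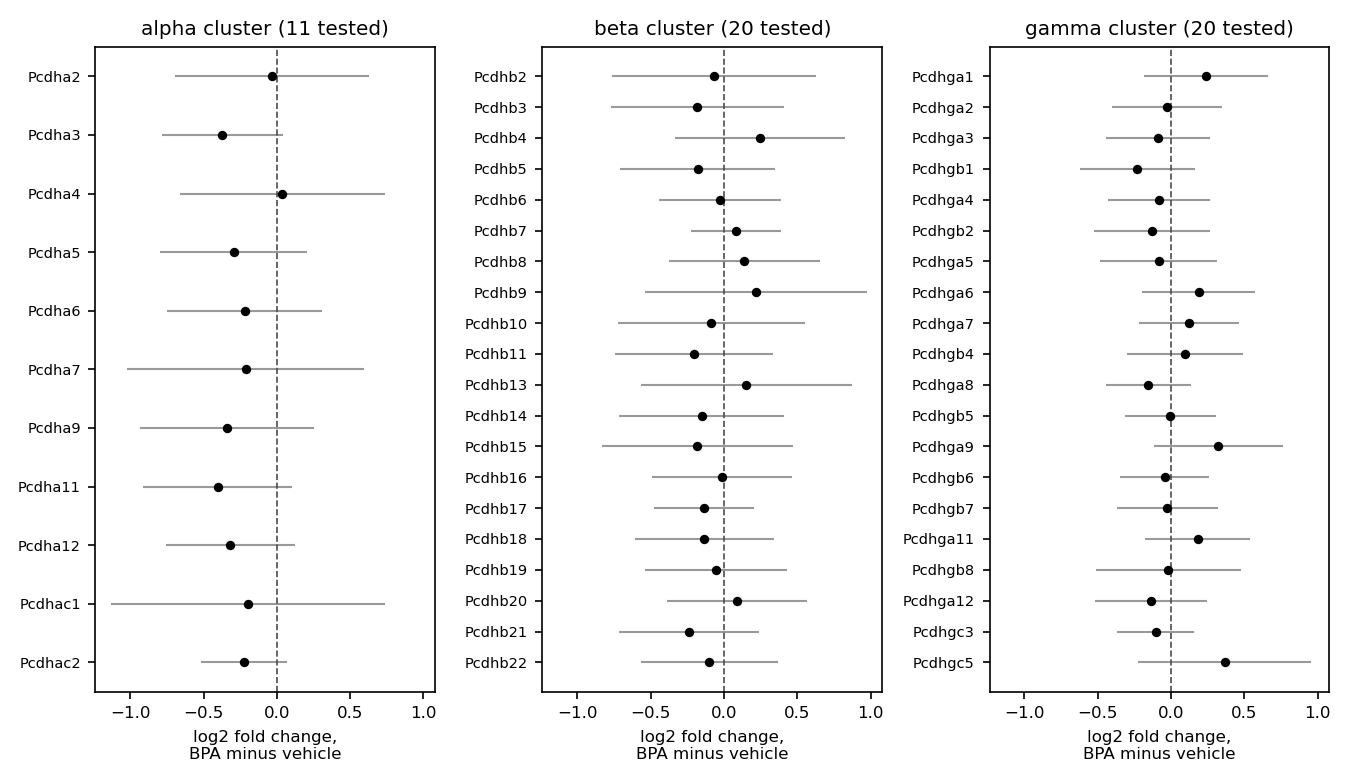
Log2 fold change of BPA over vehicle for each of the 51 tested members, in order along the chromosome within each cluster. Bars are 95% confidence intervals derived from the log2 fold change and the test statistic of edgeR's quasi-likelihood test. Every interval crosses 0, and 10 of the 11 alpha points lie left of it.

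The members were also set beside all genes tested in the same range of mean CPM. The median within-group SD of log2 CPM was 0.207 over the tested alpha genes, 0.291 over the beta genes and 0.191 over the gamma genes. Over all tested genes of the same range of mean CPM it was 0.252, 0.241 and 0.170, which is given with no test. Each range runs from the lowest to the highest tested member of the cluster, from 5.50 to 114 CPM for gamma. Genes were not matched in level within a range, so a difference in level and a difference in spread cannot be told apart.

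**Figure D4:**
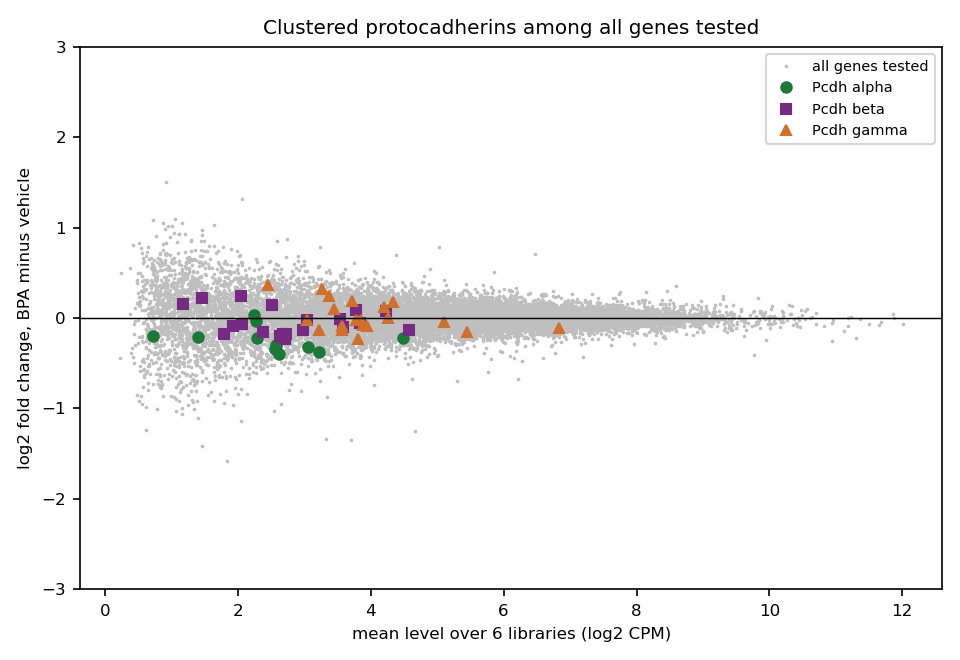
Log2 fold change against mean level (log2 CPM over 6 libraries) for all 13741 genes tested in gray, with the alpha (green circles), beta (purple squares) and gamma (orange triangles) members. The members range from -0.40 to 0.37 and lie inside the cloud of the other genes.

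Genes that act on or with the clusters were taken from 3 lists. Of 21 genes of promoter choice and chromatin, all tested, 0 had an unadjusted p under 0.05, against 2.20% of all genes, and the median log2 fold change was -0.0060. Ctcf, which binds the cluster promoters and enhancers, was at 196 CPM ± 7.23 (SD, n = 3) for vehicle against 199.9 CPM ± 10.1 for BPA. Smchd1, a chromatin protein that holds down cluster expression, was at 106 ± 11.4 and 107 ± 4.07, and Wiz, a zinc finger partner of repressive histone methyltransferases, at 287 ± 20.5 and 273 ± 12.1. Dnmt3b, the DNA methyltransferase that methylates cluster promoters in the embryo, was at 5.41 CPM ± 0.610 (SD, n = 3) for vehicle against 4.08 CPM ± 0.412 for BPA. Its log2 fold change of -0.40 (SE 0.248) had the smallest p of this list and did not pass the test. Smc3, a cohesin subunit, came next with a log2 fold change of -0.11 (SE 0.102).

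Of 24 genes for partners and effectors of the proteins, all tested, 0 had an unadjusted p under 0.05, against 2.2% of all genes tested. Of the 24, 14 were lower and 10 higher, where 49.5% of all genes tested were lower. Pdcd10, whose protein binds gamma protocadherins, had a log2 fold change of 0.35 (SE 0.201) and Cyfip1, a subunit of the actin-regulating WAVE complex, of 0.16 (SE 0.0942), the smallest p-values of this list. Of 13 genes in the list of non-clustered protocadherins, which are separate genes outside the clusters, 11 lie on other chromosomes and 2 on chromosome 18. Pcdh1 and Pcdh12 are those on chromosome 18, with their nearest ends 344 and 425 kb beyond the end of the gamma cluster. Of the 13, 9 were lower and 4 higher in BPA, with a median of -0.09, where 49.5% of all genes tested were lower. Pcdh1 alone of the 13 had an unadjusted p under 0.05 by edgeR's test, where 2.2% of all genes tested did. It was at 115 CPM ± 4.48 (SD, n = 3) for vehicle against 99.1 CPM ± 4.54 for BPA, a log2 fold change of -0.22 (SE 0.0990) and an adjusted p of 1 by the edgeR fit. Pcdh7 had the next smallest p, with a log2 fold change of 0.14 (SE 0.112).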

How the data were processed

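The authors deposited read counts per gene symbol, 1 column per library. Per the study's methods and the labels, strand-specific libraries of total RNA gave 50-base reads from single ends, which TopHat2 2.0.14 aligned to GRCm38 and which were counted with featureCounts on GENCODE models. Strand and multi-mapping options are not given in the sources used here. Groups came from the treatment labels, and replicates were numbered in accession order.

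Counts were fitted with edgeR 4.0.16 in R 4.3.3, after filterByExpr (minimum count 10, minimum total 15) and TMM scaling, with the quasi-likelihood test, no covariates and Benjamini-Hochberg adjustment over 13741 genes at 0.1. Alternatives used DESeq2 1.42.0, limma-voom (limma 3.58.1), other scalings, filters and members, and each library left out. All 56 symbols matched GENCODE M21, which gave positions, lengths and 50-base words shared with other genes. Over the bases that belong to a member alone, 2 members (Pcdha6 and Pcdha7) shared over 20% of such words. The SE of a log2 fold change was derived as its absolute value over the square root of the F statistic of the quasi-likelihood test. Confidence intervals of log2 fold changes were derived from this SE and a t quantile. Intervals on sums cover counting error only. The p-values set each group difference against the spread between these fetuses, estimated with information shared over all genes tested, and the litters are not known. The fit was tested on simulated data.

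The members and gene lists were chosen with earlier results of these data known. Named by rule were the C-type genes, and in each cluster the 3 highest in CPM and the 2 with the smallest p. All other members named, such as Pcdhgb2, Pcdhga11, Pcdhb20 and the untested members, were named after their values were seen. Marker lists also covered radial glia and progenitors (7 genes, 1313 to 1566 CPM in vehicle and 1235 to 1547 CPM in BPA), choroid plexus (3.38 to 210 and 12.3 to 332), blood (252 to 568 and 301 to 384), vessels and meninges (59.7 to 100.4 and 63.9 to 95.9) and microglia (29.6 to 31.7 and 29.5 to 33.5). The choroid plexus gene Ttr was at 195 CPM in vehicle replicate 2 and at 308 CPM in BPA replicate 2. In the other libraries it was between 2.21 and 11.9 CPM.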

Additional observations from a re-analysis of the deposited data

How the results depend on the processing

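The count of members past an adjusted p of 0.1 was 0 under every alternative run. Over all genes it was 3 with DESeq2 and 19 with no filter, and 0 to 1 when a library was left out. With no filter, 1 of 55 members (Pcdhb12) had an unadjusted p under 0.05 by edgeR's test. When a library was left out, 0 to 2 of 51 did, the 2 being Pcdhgb1 and Pcdhgc5 without vehicle replicate 1. Over all genes tested the share was 2.2% in the main fit. It was not taken for these other fits, so these counts have no background of their own. Members whose groups did not overlap numbered 4 to 11 of 51 with 1 library fewer (7.84% to 21.6%, beside 12.2% to 19.7% of all genes in the same fits), and 0 without the 34 members that share over 20% of all their transcript words, a set that holds every alpha and gamma gene. The alpha median log2 fold change lay between -0.33 and -0.18 with 1 library fewer, the beta median between -0.19 and -0.0048, and the alpha sum's log2 ratio between -0.30 and -0.19. Without vehicle replicate 2 the alpha median was -0.33 and the gamma median 0.053, and over the 6 fits with 1 library fewer the gamma median lay between -0.064 and 0.053. The log2 fold change of 25 of the 51 tested members (4 alpha, 12 beta and 9 gamma) changed sign in at least 1 fit with 1 library fewer, and that of 5 of these 25 also with another tool or scaling. Among the 15 members named by rule they were Pcdhac1 (-0.47 to 0.19 with 1 library fewer), Pcdhb19 (-0.24 to 0.33, and 0.011 with limma-voom), Pcdhgb6 (-0.12 to 0.14) and Pcdhgc3 (-0.21 to 0.053). Without a change of sign, Pcdhb17 ran from -0.29 to -0.029, Pcdhb7 from 0.018 to 0.12 and Pcdhga8 from -0.26 to -0.069. No paired analysis was possible because the labels give no number that vehicle and BPA samples share. Depth limits the low members most, with 3 counts equal to 0.875 CPM in BPA replicate 3.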
